A study of Mus musculus with 6 samples.

Results

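Id1, Id2 and Id3 encode small helix-loop-helix proteins without a DNA-binding domain. They pair with basic helix-loop-helix factors and keep them off DNA, and they are the best-known direct targets of BMP signalling, through Smad1 and Smad5, in mouse embryonic stem cells. BMP with leukemia inhibitory factor is known to hold these cells undifferentiated, and Id proteins are part of that response. The peaks described here are all those of 5 ChIP-seq peak lists that overlapped, by at least 1 bp, a window set around each gene in the mm9 build. The windows were chr2:152540000-152585000 for Id1 (45 kb), chr12:25755000-25805000 for Id2 (50 kb) and chr4:135675000-135725000 for Id3 (50 kb). They held 45 of the 70533 peaks in all lists, 22 at Id1, 13 at Id2 and 10 at Id3.

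The cells were J1 mouse embryonic stem cells carrying BirA, a bacterial biotin ligase, and all libraries shared that background and a medium with serum and leukemia inhibitory factor, with no treatment or time course in the labels. Antibodies were used to precipitate Tgif1, Hdac1 and Smad3, whereas Tgif2 and Nanog were pulled down on streptavidin beads. Tgif1 and its paralog Tgif2 are homeodomain corepressors that bind Smad proteins, Hdac1 is a histone deacetylase, Nanog is a pluripotency factor, and Smad3 is the signal carrier of the TGF-beta and Activin branch, not of the BMP branch. Each factor had 1 library and 1 list, so no value has a replicate check and no test between factors was possible. The BirA mock library was not analysed, so the values stand without a control level. Peak lists hold no expression level, so the cell type could not be checked by marker genes. Lists ran from 1226 peaks for Smad3 to 19129 for Tgif2, with 43227 to 1347497 tags, the sequenced fragments counted in peaks. How deeply the whole libraries were sequenced is unknown.

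No mm9 gene annotation was used here, so peaks are placed relative to each other and not to exons, introns or transcription starts. In the GRCm38.p6 RefSeq gene table, the protein-coding genes next in order of start position were Mcts2 and Cox4i2 around Id1, Kidins220 and Rnf144a around Id2, and Rpl11 and E2f2 around Id3. A peak in a window may therefore belong to a neighbour. Promoter sequences from RefSeq (GRCm38.p6) were matched for 2 of the 3 genes, Id2 and Id3, and are shown as the DNA upstream of genes that BMP Smads are known to regulate. Each is the 250 bases before the gene's start, 5′ to 3′ on the gene's strand, and capitals mark the letters searched on both strands: CTGTCA, the core bound by Tgif proteins, CAGAC, a Smad box, and GGCGCC, a GC-rich Smad site. These letters do not overlap each other here. The Id2 sequence is chr12:25096093-25096342 on the minus strand and the Id3 sequence is chr4:136143572-136143821 on the plus strand.
Id2: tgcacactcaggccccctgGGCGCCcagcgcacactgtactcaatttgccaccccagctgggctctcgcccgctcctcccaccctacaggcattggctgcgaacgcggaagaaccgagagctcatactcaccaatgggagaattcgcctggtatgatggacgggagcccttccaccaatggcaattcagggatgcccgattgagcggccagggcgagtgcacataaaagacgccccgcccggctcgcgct
Id3: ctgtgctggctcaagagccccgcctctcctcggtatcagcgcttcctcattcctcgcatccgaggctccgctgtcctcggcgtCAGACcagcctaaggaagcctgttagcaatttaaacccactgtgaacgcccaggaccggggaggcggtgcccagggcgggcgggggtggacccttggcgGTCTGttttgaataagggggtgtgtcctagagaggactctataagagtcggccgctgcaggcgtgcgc

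The Id2 sequence held GGCGCC 1 time, starting at base -231, a match found in 9.59% of the 32851 promoter sequences in the table. The Id3 sequence held the Smad box 2 times, at base -167 as CAGAC and at base -68 as its reverse complement GTCTG, against 42.2% of promoters with at least 1 such match. CTGTCA or its reverse complement TGACAG, present in 15.9% of promoters, was not among the letters of either sequence. Both sequences were 62.8% G or C, against a median of 52.4% over all promoters. These coordinates are of another build than the peaks, so the sequences cannot be placed against them.

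The 3 loci carried Tgif1, Tgif2, Hdac1 and Nanog, and Id3 alone carried Smad3. Tgif1 had 6 peaks at Id1, 3 at Id2 and 3 at Id3. The numbers for Tgif2 were 5, 4 and 2, and those for Hdac1 were 5, 4 and 3. Nanog fell off most steeply, from 6 peaks at Id1 to 2 at Id2 and 1 at Id3. The single Smad3 peak was at Id3. Over the 52720 bins of 50 kb into which the chromosomes were divided, 8.77% held a peak of each of the first 4 factors and 1.46% held all 5. A Tgif1 peak was present in 18.8% of bins, Tgif2 in 21.0%, Hdac1 in 19.2%, Nanog in 20.0% and Smad3 in 2.04%. Bins cover gene-poor DNA as well as genes, and a window set around a chosen gene is not a random bin.

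**Figure D1:**
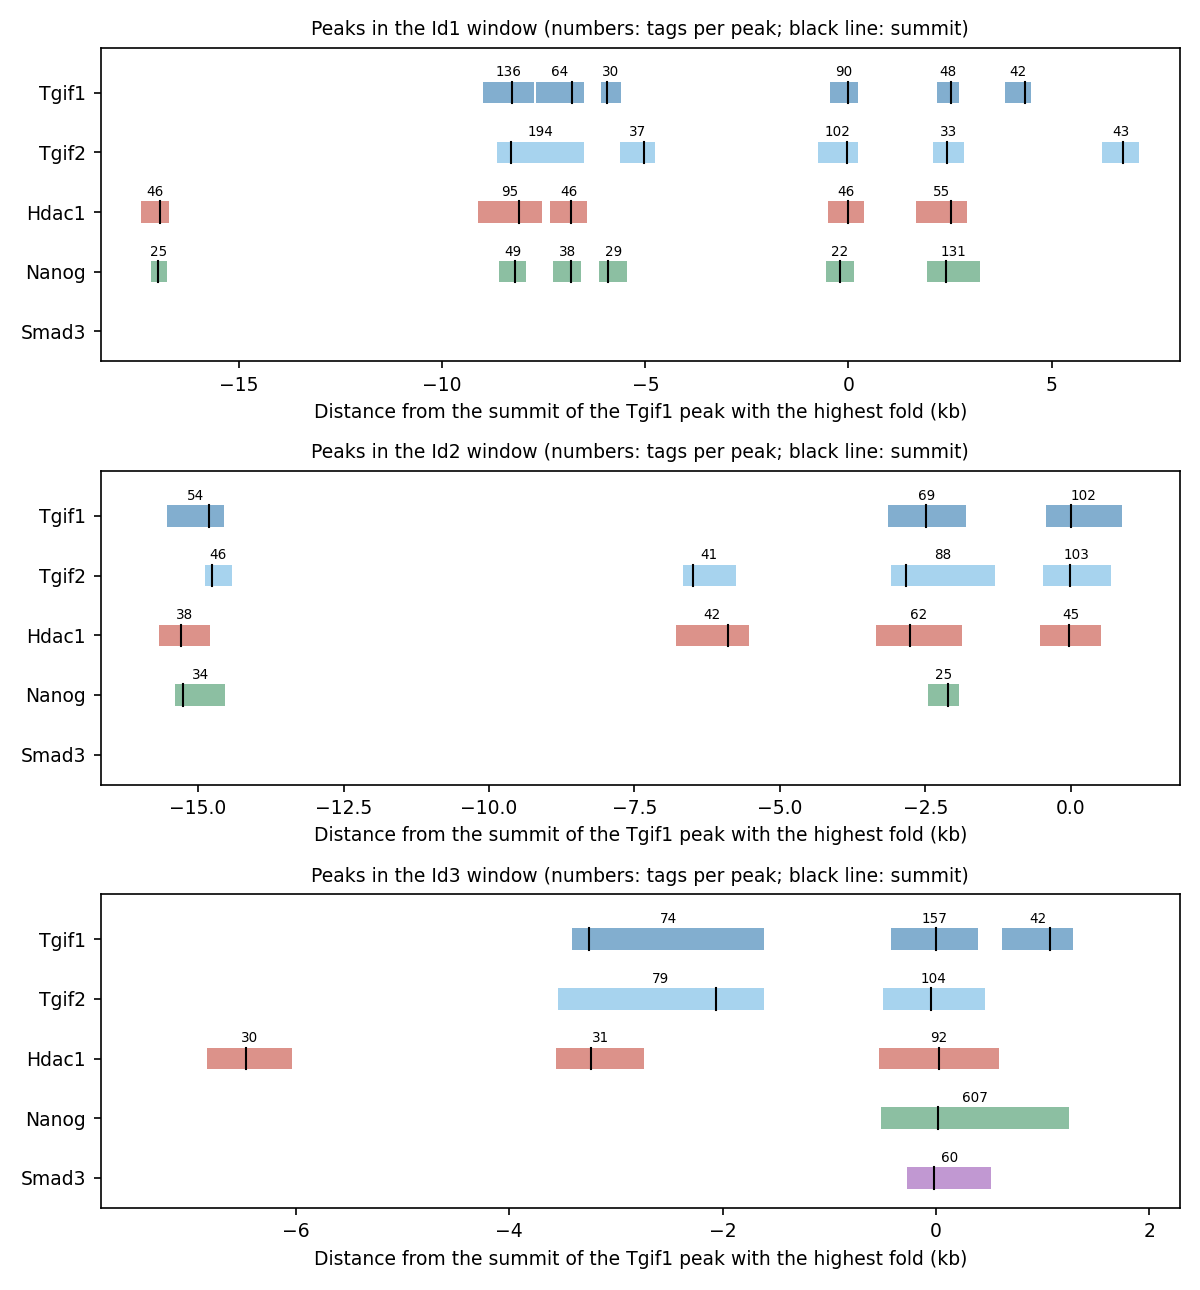
Peaks of the 5 factors in the Id1, Id2 and Id3 windows, as bars from start to end with a black line at the summit, against distance in kb from the summit of the Tgif1 peak with the highest fold in that window. Numbers are tags per peak, and the Id3 panel shows all 5 factors stacked at 1 place where the Nanog peak held 607 tags.

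Of the 3 genes, Id1 had the most peaks. Its 22 peaks of all lists were matched or exceeded in 0.281% of bins, although its window is 5 kb shorter than a bin. The 13 peaks at Id2 were reached by 1.67% of bins and the 10 at Id3 by 3.11%. Among bins with at least 1 peak of any list, the corresponding shares were 0.898%, 5.33% and 9.94%. For single factors, 0.353% of bins had at least the 6 Tgif1 peaks of Id1 and 0.338% at least its 6 Nanog peaks. At Id3, 20.0% of bins had at least its 1 Nanog peak, so Nanog at Id3 was unremarkable by number of peaks, whereas its tags were among the highest of the list. The count at Id3 also depended on the width of the window. With 25 kb added on each side it rose from 10 to 29 peaks, while Id1 rose from 22 to 31 and Id2 from 13 to 19. Id1 then still had the most peaks, closely followed by Id3, and Id2 had the fewest.

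**Figure D2:**
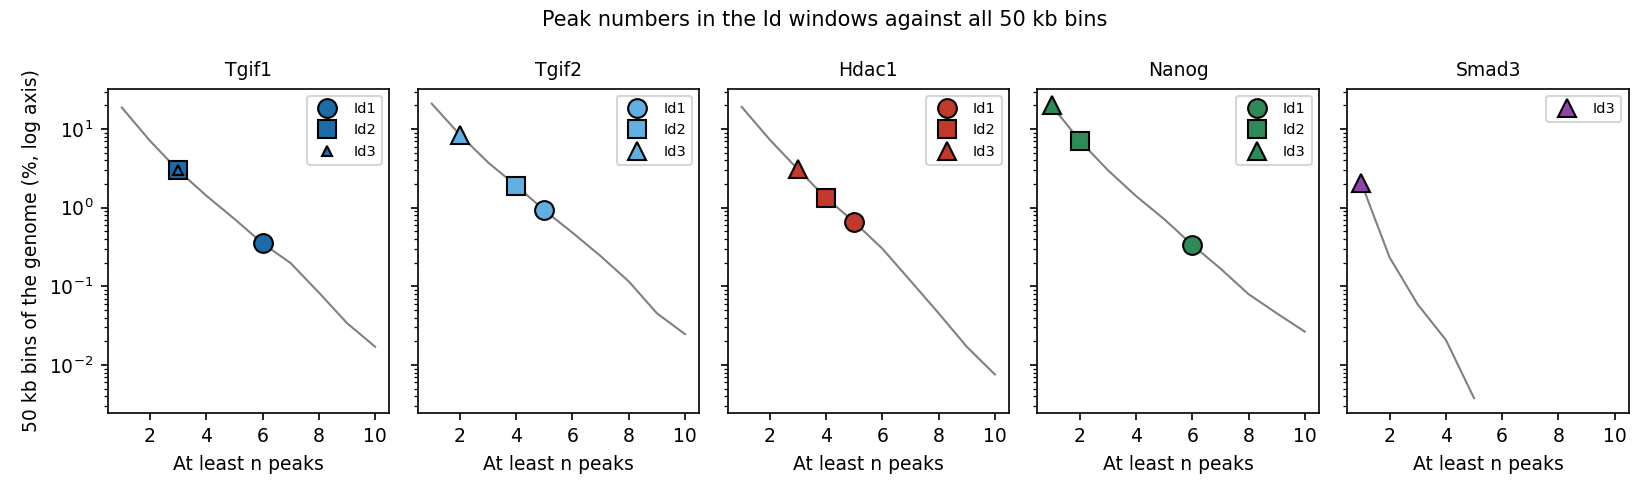
Share of all 50 kb bins (log axis, percent) with at least n peaks of a factor, as a grey line, with the number of peaks in the Id1 (circle), Id2 (square) and Id3 (triangle) windows marked on it. Id1 lies lowest on the lines of Tgif1, Tgif2, Hdac1 and Nanog, and Smad3 has a mark for Id3 only, where 2.04% of bins had at least 1 peak.

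Peaks of a factor also lay close to others of the same factor. Of the 12 Tgif1 peaks, 9 had at least 2 more Tgif1 summits within 5 kb, 6 at Id1 and 3 at Id3, against 7.91% of the Tgif1 list. For Tgif2 it was 2 of 11 against 8.53%, for Hdac1 2 of 12 against 6.18%, and for Nanog 3 of 9 against 10.3%. Neither this reach nor one of 10 kb was planned, and both were chosen after the data were seen. Within 10 kb the Tgif1 count stayed at 9 of 12 (17.9% of the list). The others rose to 8 of 11 for Tgif2 (19.3%), 10 of 12 for Hdac1 (15.9%) and 5 of 9 for Nanog (19.7%). The higher count of Tgif1 was thus seen at 5 kb and not at 10 kb. Peaks of 1 cluster count each other, so the Tgif1 numbers at 5 kb describe 3 groups of Tgif1 peaks, 2 at Id1 and 1 at Id3, and not 9 separate cases. A single Tgif2 peak of 2151 bp at Id1 lay over a pair of Tgif1 peaks, a pair of Hdac1 peaks and a pair of Nanog peaks.

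Joining overlapping peaks of the 5 lists gave 14 regions, 7 at Id1, 4 at Id2 and 3 at Id3, numbered below in the order of their coordinates. The combination of Tgif1, Tgif2, Hdac1 and Nanog without Smad3 made up 5 of them, against 10.2% of all 33152 regions. It occurred at Id1 and Id2. At least 4 factors met in 6 of the 14 regions, against 12.8% of all regions, and at least 3 factors in 9, against 33.9%. One region, at Id3, held all 5, a class with 2.01% of all regions. Only 3 of the 14 had a single factor, whereas 43.2% of all regions did. Nanog alone, the class with the most regions genome-wide (22.6% of all regions), did not occur among the 14.

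Among single factors, Tgif1 peaks at the loci were shared with Tgif2 in 10 of 12 cases, against 79.2% of the Tgif1 list, a share close to that background. Hdac1 overlapped 9 of the 12, against 66.1%, also close to it. Nanog likewise overlapped 9 of 12, against 36.7% of the list. Smad3 overlapped 1 of 12, against 5.04%. Of the 9 Nanog peaks, 8 were overlapped by Tgif1 (35.8% of the Nanog list), 8 by Tgif2 (36.7%), 8 by Hdac1 (45.9%) and 1 by Smad3 (6.43%). Tgif2 peaks were overlapped by Tgif1 in 9 of 11 cases (68.0% of the Tgif2 list), by Hdac1 in 9 (59.9%), by Nanog in 7 (32.2%) and by Smad3 in 1 (4.08%). Hdac1 peaks were overlapped by Tgif2 in 10 of 12 cases (68.4% of the Hdac1 list), by Tgif1 in 9 (64.6%), by Nanog in 8 (45.6%) and by Smad3 in 1 (5.90%). The 1 Smad3 peak was overlapped by all 4 other factors, as 67.5% of the Smad3 list was by Tgif1, 63.7% by Tgif2, 81.1% by Hdac1 and 90.3% by Nanog. The Nanog peak without either Tgif was the one furthest from the rest at Id1, and the one without Hdac1 lay in Id1 region 3. Peaks at 1 locus share their surroundings, so these counts are not independent of each other. When each list was limited to peaks that reached its median fold, 6 of the 12 Tgif1 peaks remained. Of these, 4 were shared with Tgif2, 3 with Hdac1 and 2 with Nanog. The whole-list shares under that limit were not computed, so these counts have no background.

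At Id1 the peaks spanned 24.6 kb, and the factors did not share one strongest place. Tgif1 and Tgif2 had their highest fold in region 4, Nanog in region 5 and Hdac1 in region 1. By tags, Tgif1, Tgif2 and Hdac1 all moved to region 2, which held the widest peak of each at Id1, and Nanog stayed in region 5. Per kb of peak width the lead of Tgif1 and Tgif2 was again in region 4 (ranks 260 and 1188, against 679 and 2151 in region 2) and that of Hdac1 in region 1 (rank 1236, against 2104). Fold is the authors' enrichment of a peak over its background and tags are the authors' count in it, and both are read here only within a factor's own list. Intervals on tags are exact 95% Poisson intervals and cover counting error only.

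Id1 region 4, chr2:152560187-152561330, held the leading Tgif peaks by fold. The Tgif1 peak reached 49.7-fold with 90 tags (72.4 to 111) and ranked 263 of 16400 by fold, so 1.60% of the list was higher. The Tgif2 peak reached 54.6-fold with 102 tags (83.2 to 124) and ranked 415 of 19129, with 2.16% higher. Both stood lower by tags, with 18.01% of the Tgif1 list and 14.8% of the Tgif2 list above them. Hdac1 was 16.7-fold there with 46 tags, and Nanog was weak, at 12.97-fold with 22 tags and 80.1% of its list higher by fold. The Tgif1, Hdac1 and Tgif2 summits lay within 34 bp of each other, and the Nanog summit was 213 bp from that of Tgif1.

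Id1 region 5, chr2:152562605-152564187, showed the opposite order by fold and by tags. Nanog reached 58.3-fold with 131 tags (110 to 155), ranking 960 of 17272 by tags and 2199 by fold. Its tag interval did not touch that of the other Nanog peaks at Id1, which held 22 to 49 tags. Tgif2 was at 7.69-fold and 33 tags, the smallest number of tags in any Tgif2 peak, with 92.2% of its list higher by fold. Tgif1 was 12.3-fold with 48 tags and Hdac1 10.8-fold with 55, both near the middle of their lists by fold. Per kb of peak width, however, the Tgif1 peak stood about as high in its list as the Nanog peak did. By that measure 11.4% of the Tgif1 list and 12.7% of the Nanog list were higher. The Tgif1 and Hdac1 summits were 2 bp apart, and the Tgif2 and Nanog summits were 7 bp apart, 101 bp or more from the first pair.

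Id1 region 2, chr2:152551818-152554501, was 2683 bp wide, and 2.02% of all regions were wider. It held 7 peaks, since Tgif1, Hdac1 and Nanog each had a pair of peaks under the wide Tgif2 peak. The Tgif2 peak had 194 tags (168 to 223), rank 380 of its list, at a moderate 18.6-fold. The left Tgif1 peak had 136 tags (114 to 161), rank 885, at 17.6-fold, and the right one had 64 tags at 9.87-fold. Hdac1 had 95 tags on the left, with 7.14% of its list higher, yet only 6.25-fold, with 93.3% higher by fold. Nanog had 49 tags on the left and 38 on the right, at 9.57-fold and 24.95-fold. Summits formed a left group, from Tgif2 to Hdac1 206 bp wide, and a right group in which Tgif1, Hdac1 and Nanog lay within 21 bp.

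The remaining Id1 regions carried fewer factors. Region 3, chr2:152554815-152556182, counted as shared by Tgif1, Tgif2 and Nanog, but Tgif1 and Tgif2 overlapped by only 6 bp and their summits were 898 bp apart. There the Tgif1 summit lay 18 bp from that of Nanog, and the Tgif1 peak had 30 tags, the fewest in any Tgif1 peak. Region 1, chr2:152543536-152544229, joined Hdac1 at 22.3-fold and 46 tags with Nanog at 14.8-fold and 25 tags, without either Tgif factor. That Hdac1 fold ranked 1080 of 16506. Regions 6 and 7 held a lone Tgif1 peak (8.89-fold, 42 tags) and a lone Tgif2 peak (15.0-fold, 43 tags).

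**Figure D3:**
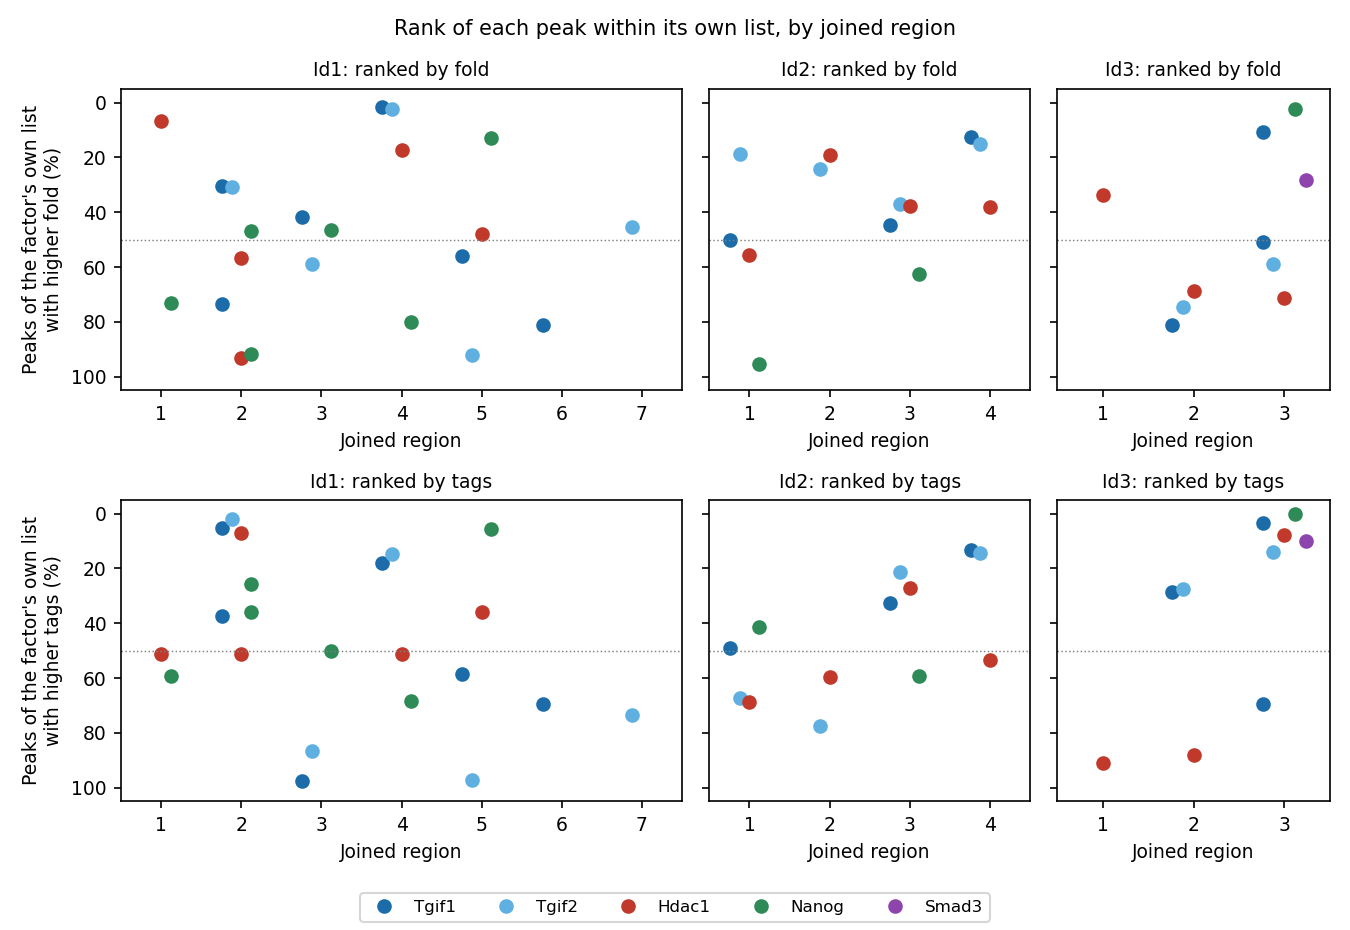
Percentage of the factor's own list with higher fold (upper row) or more tags (lower row) for each peak, by joined region within the Id1, Id2 and Id3 windows; points near the top are strong peaks of their list and the dotted line marks 50%. At Id1 the leading Tgif points move from region 4 by fold to region 2 by tags, and at Id3 region 3 the 5 factors lie within 14.1% of the top by tags, apart from the second Tgif1 peak there.

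At Id2 Tgif1, Tgif2 and Hdac1 each had 3 or 4 peaks and Nanog had 2, which were low in the Nanog list by fold and near its middle by tags. The peaks spanned 16.5 kb. Region 4, chr12:25783289-25784683, had the strongest Tgif peaks of the locus by fold and by tags, and no Nanog peak. Per kb of peak width the lead of Tgif1 stayed in region 4, but that of Tgif2 was in region 1 (rank 1397, against 2333 in region 4). Tgif1 was 26.0-fold with 102 tags (83.2 to 124), with 12.4% of its list higher by fold and 13.2% by tags. Tgif2 was 26.4-fold with 103 tags (84.1 to 125), with 15.1% and 14.4% higher, so the paralogs stood at similar places in their lists. Hdac1 had 45 tags at 12.2-fold. The 3 summits fell within 35 bp.

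Region 3 at Id2, chr12:25780470-25782508, was shared by Tgif1, Tgif2, Hdac1 and Nanog, with their summits spread over 723 bp. Tgif2 had 88 tags at 16.9-fold, Tgif1 69 tags at 14.2-fold, Hdac1 62 tags at 12.3-fold and Nanog 25 tags at 18.5-fold. The Tgif1 and Tgif2 summits were 346 bp apart there, and the Nanog summit lay 377 bp to the other side of that of Tgif1. Region 1, chr12:25768137-25769392, had the same factors in 2 places. Hdac1 (38 tags, 10.01-fold) and Nanog (34 tags, 8.49-fold) had summits 34 bp apart, and Tgif1 (54 tags, 13.3-fold) and Tgif2 (46 tags, 24.1-fold) had summits 53 bp apart and 443 bp or more from the other pair. Region 2, chr12:25777019-25778274, held Tgif2 (41 tags, 21.1-fold) and Hdac1 (42 tags, 15.98-fold) with summits 589 bp apart.

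Both Nanog peaks at Id2 lay in the lower part of the Nanog list by fold, with 62.6% and 95.4% of peaks higher. By tags the same peaks had 59.3% and 41.3% of the list above them, a median of 50.3%, against a median of 56.4% for the 4 Hdac1 peaks at Id2. All 4 Tgif2 peaks at Id2 lay in the upper part by fold, with 15.1% to 37.1% of the list higher, but by tags 2 of the 4 did. Just outside the window, 0.472 kb before its start, was an Hdac1 peak of 6.99-fold and 45 tags, and 0.761 kb before it a Nanog peak of 8.13-fold and 37 tags. The first peak inside began 13.1 kb after the window's start. Beyond the window's end, the nearest Hdac1 peak lay 3.707 kb away, at 27.84-fold and 59 tags. The nearest Nanog peak on that side, 4.399 kb away, was 33.44-fold with 23 tags. Both folds were above any of the same factor inside the Id2 window, where the highest were 15.98 and 18.48, but the Nanog tags were fewer. Tgif1 (4.285 kb, 23.52-fold) and Tgif2 (4.205 kb, 21.89-fold) also had peaks there.

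At Id3 the peaks spanned 8.11 kb, and region 3, chr4:135702299-135704118, was the one place at the 3 genes with all 5 factors. The Nanog peak there was among the strongest of its list. It held 607 tags (560 to 657), rank 7 of 17272, so 0.0347% of the Nanog list had more, and its 133-fold enrichment ranked 387. The most tags in another Nanog peak at the 3 loci were 131. Tgif1 had 157 tags (133 to 184) at 27.5-fold, rank 529 by tags and 1733 by fold. Per kb of peak width the Tgif1 peak ranked 45 of 16400 and the Nanog peak 58 of 17272.

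The other factors in Id3 region 3 were strong by tags. By fold, Tgif2 and Hdac1 were below the middle of their lists and Smad3 was above it. Tgif2 had 104 tags (85.0 to 126), with 14.1% of its list higher, at 12.6-fold, with 58.8% higher. Hdac1 had 92 tags (74.2 to 113), with 7.95% higher, at 8.50-fold, with 71.3% higher. Smad3 had 60 tags (45.8 to 77.2), rank 125 of 1226, at 11.7-fold, rank 346, with 28.1% higher. Per kb of peak width, 4.79% of the Tgif2 list, 1.96% of the Hdac1 list and 5.79% of the Smad3 list were higher. The summits of Tgif2, Smad3, Tgif1, Nanog and Hdac1 followed each other within 80 bp, with Smad3 17 bp from Tgif1 and 41 bp from Nanog. A second Tgif1 peak under the same Nanog peak, 42 tags at 13.2-fold, had its summit 1044 bp from that of Nanog and overlapped no Tgif2, Hdac1 or Smad3 peak.

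Region 2 at Id3, chr4:135699276-135701222, was broad and weak by fold. Tgif1 had 74 tags over 1797 bp at 8.87-fold and Tgif2 79 tags over 1926 bp at 10.2-fold, with 81.1% and 74.5% of their lists higher by fold. Hdac1 had 31 tags at 8.72-fold with its summit 18 bp from that of Tgif1, while the Tgif2 summit was 1190 bp from that of Tgif1. No Nanog or Smad3 peak was listed there. Region 1, chr4:135696005-135696796, held Hdac1 alone, with 30 tags at 12.8-fold. That was the highest Hdac1 fold at Id3. Its tags (20.2 to 42.8) were about as many as in region 2 (21.1 to 44.0) and fewer than the 92 in region 3.

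Smad3 was listed at Id3 and at neither other gene. The nearest Smad3 peak lay 348 kb beyond the Id1 window and 10818 kb beyond the Id2 window. Of the 4624 bins with peaks of Tgif1, Tgif2, Hdac1 and Nanog, 16.7% also held Smad3. A list shows only peaks past the authors' threshold, itself unknown here, so weaker Smad3 signal at Id1 and Id2 was not measured. Whether the 3 genes differ in Smad3 binding was not tested, since there was 1 library.

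**Figure D4:**
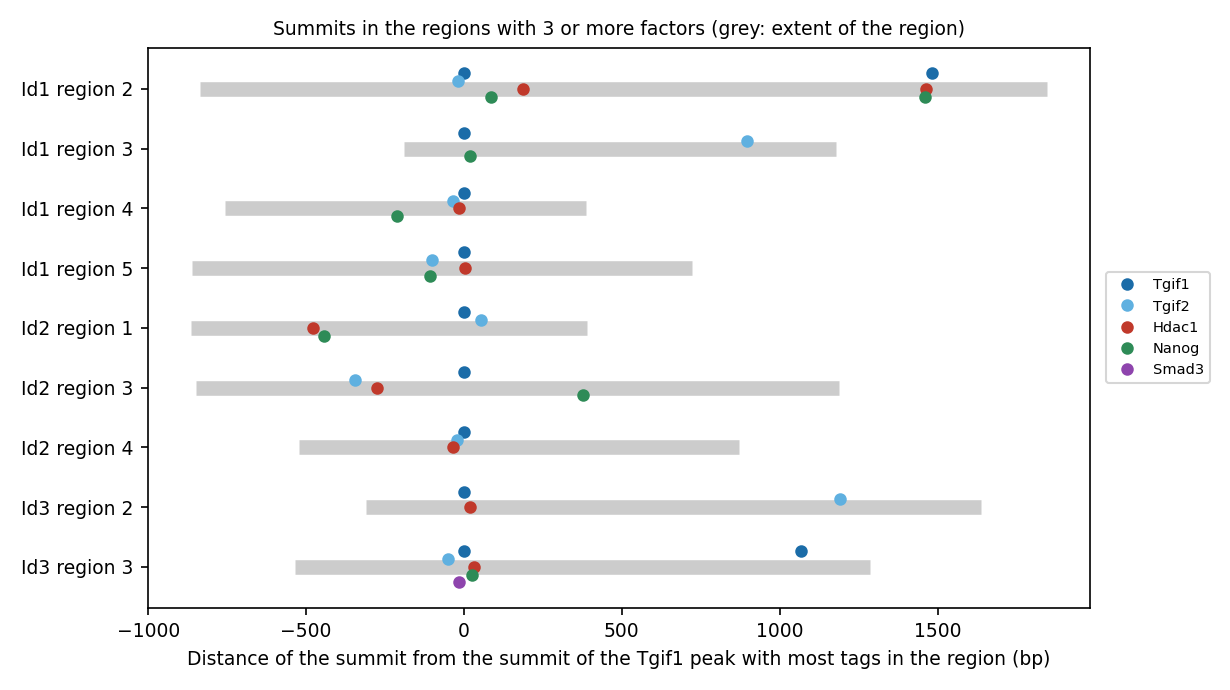
Summits in the 9 regions with at least 3 factors, in bp from the summit of the Tgif1 peak with the most tags in that region; grey bars show the extent of the region. The 5 summits at Id3 region 3 lie within 80 bp, with a further Tgif1 summit to the right, whereas those at Id2 region 3 spread over 723 bp.

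Summits at the loci were not uniformly close. Over 10 overlapping pairs of Tgif1 and Hdac1 peaks the median distance was 33 bp (2 to 1295 bp), against 67 bp over all such pairs in the genome. With peak midpoints in place of summits this order turned, to 178 bp at the loci against 102 bp over all pairs. Over 10 pairs of Tgif1 and Tgif2 it was 77 bp (20 to 1501 bp), against 43 bp. Over 9 pairs of Tgif1 and Nanog it was 108 bp (18 to 1044 bp), against 63 bp. The pairs of Tgif2 and Nanog lay furthest apart, with a median of 337.5 bp over 8 pairs (7 to 1480 bp), against 73 bp. The longest distances came from wide peaks with a single summit or from short overlaps, such as the Tgif2 peaks in Id1 regions 2 and 3.

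Set against their own lists, the peaks at the 3 genes were of middling fold, with a few strong exceptions. The median peak had 47.4% of the Tgif1 list above it by fold, 37.1% of the Tgif2 list, 43.0% of the Hdac1 list and 62.6% of the Nanog list, where 50% is the middle of a list. Nanog peaks ran from 2.23% at Id3 to 95.4% at Id2. By tags, 8 of 12 Tgif1 peaks and 4 of 12 Hdac1 peaks were in the upper part of their lists, against 6 and 7 by fold. Some Hdac1 peaks at Id1, tied at 46 tags, fell just below the list median of 47. Tgif1 tags summed to 410 at Id1, 225 at Id2 and 273 at Id3. Nanog tags summed to 294, 59 and 607 in the same order, so that Id3, with the fewest Nanog peaks, had the most Nanog tags. Tgif2 tags were 409, 278 and 183, and Hdac1 tags 288, 187 and 153, falling from Id1 to Id3.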

How the data were processed

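The members were chosen, and the lists and measures set, with earlier results of these data known. Columns of the headerless lists were read from their values. BWA 0.5.9-r16, MACS and mm9 appear in the submitters' processing notes. The sources used here do not give the threshold, the control library or any pooling. The deposited lists give a fold enrichment per peak, a ratio made by the authors' peak caller, and a count of tags per peak, made by the authors and not normalized. The summit lay inside the peak in all lists. Coordinates are as deposited, uncertain by 1 bp.

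Peaks were assigned to the 3 windows by an overlap of at least 1 bp, which was also the rule for sharing. Ranks are 1 plus the peaks of the list with a higher value. Bins of 50 kb covered chromosomes 1 to 19 and X up to the last peak, and a peak across a border counted in both. All peaks in the windows are reported, the named genes being Id1, Id2 and Id3. Other BMP pathway genes were planned but not analysed, since mm9 annotation was not used here. Overlaps were tested on simulated data and checked against bedtools 2.31.1, where 0 of 20 pairs of lists differed. Python 3.11.15, NumPy 2.4.6, pandas 2.3.3, SciPy 1.17.1 and matplotlib 3.10.9 were used. Alternatives were other windows, rankings, overlap rules and joins. The neighbour counts at 5 kb and 10 kb were not planned. Neither were the shares of bins with at least as many peaks as a window, nor the moved bins. All of these were chosen after the data were seen.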

Additional observations from a re-analysis of the deposited data

How the results depend on the processing

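Of 182 alternative values, 113 stayed within 1.5 times the main count, or at the main value, and 69 did not. No difference was tested, but some values changed sides of the middle of a list or of the genome value, as given here. Peaks at or above the median fold numbered 12 of 22 at Id1, 9 of 13 at Id2 and 4 of 10 at Id3. Those at or above the median tags numbered 10 of 22 at Id1, 7 of 13 at Id2 and 7 of 10 at Id3. Widening the windows by 25 kb gave 31 peaks at Id1, 19 at Id2 and 29 at Id3, so that Id2 had the fewest. The median share of the list above the peaks was 47.4% (Tgif1), 37.1% (Tgif2), 43.0% (Hdac1), 62.6% (Nanog) and 28.1% (Smad3, 1 peak) by fold. By tags it was 35.0%, 27.5%, 51.3%, 41.3% and 10.1%, and by tags per kb 35.3%, 81.2%, 54.6%, 40.0% and 5.79%. Hdac1 thus crossed the middle of its list by both, Tgif2 by tags per kb, and Nanog in the other direction. The Hdac1 crossing by tags was slight. It rested on Id1 peaks tied at 46 tags, against a list median of 47. Of the 12 Tgif1 peaks, those shared by summits within 200 bp were 6 with Tgif2 and 5 with Nanog. With each list limited to peaks that reached its median fold, sharing was again an overlap of at least 1 bp. Of the 6 Tgif1 peaks left, 4 were then shared with Tgif2, 3 with Hdac1 and 2 with Nanog. Whole-list shares were not computed under these rules. Midpoints in place of summits gave medians of 207 bp to Tgif2, 178 bp to Hdac1 and 142 bp to Nanog, against 89, 102 and 116 bp over all pairs, so that Tgif1 to Hdac1 turned from closer than the genome to further. The number of regions and of those with at least 3 or 4 factors stayed within 1.5 times under each join tried. Bins moved by 25 kb gave 0.292%, 1.66% and 3.10% for Id1, Id2 and Id3. The cause of these shifts was not tested, but restricted lists hold fewer peaks by construction. No paired analysis was possible because each factor had 1 library. Depth of whole libraries is unknown, and a peak near a list's minimum, such as 30 tags for Tgif1 or 33 for Tgif2, may be missed in a shallower library.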
